A study of Mus musculus with 24 samples.

Results

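Androgen action in the kidney was followed through 6 genes: Srd5a2, Gusb, Kap, Odc1, Slco1a1 and Acsm3. They were chosen by name, as the probes of an Agilent single-colour array whose transcript accession belongs to 1 of these symbols, and they are 6 of the 17736 genes tested. The names, and the gene lists below, were picked with earlier results of these data known. Counts of them beside the share of all genes are therefore descriptions and no test of a list. All 6 were well above background on all 24 arrays and none was lost to the filter on dim probes. Kidney RNA came from male Crl:CD1(ICR) mice, an outbred stock. The sham group (n = 6) received vehicle in the vein and normal feed. The diabetic group, labelled DKD (n = 9), received 90 mg/kg of alloxan, which destroys insulin-producing beta cells, 3 days before grouping and then normal feed. The enarodustat group (n = 9) received the same alloxan dose and then feed with 0.01% of enarodustat by weight, an inhibitor of the prolyl hydroxylases that mark hypoxia-inducible factors for degradation. Kidneys were taken 16 days after grouping, and mice had been assigned to the diabetic groups so that glucose and weight were alike. The labels give no age and no hormone measurement, and the model covers short diabetes in mice of 1 sex.

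Testosterone reaches the kidney from the blood and acts in its target cells through a nuclear receptor held ready by heat shock protein chaperones. In some tissues it is first reduced by steroid 5-alpha-reductases to dihydrotestosterone, the more potent ligand. The mouse kidney is a classical target organ: its proximal tubule cells respond to the hormone, males and females differ in many proximal tubule transcripts, and Gusb, Kap and Odc1 were among the first genes shown to respond to androgen there. A fall of androgen drive in diabetes is the question these genes were chosen for, and no androgen level, receptor activity or receptor binding was measured.

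The genes lie on separate loci of the mouse genome (RefSeq, GRCm38.p6): Gusb on chromosome 5, Kap and Slco1a1 on chromosome 6, Acsm3 on chromosome 7, Odc1 on chromosome 12 and Srd5a2 on chromosome 17. The 250 bases upstream of the RefSeq start site are shown for the genes with the largest falls in diabetes, Srd5a2 and Gusb, and for Kap, the gene whose fall did not pass the test. They are chr17:74047861-74048110, chr5:130003050-130003299 and chr6:133853668-133853917, all read 5′ to 3′ on the minus strand, and the capitals mark a TATAAA match.
Srd5a2: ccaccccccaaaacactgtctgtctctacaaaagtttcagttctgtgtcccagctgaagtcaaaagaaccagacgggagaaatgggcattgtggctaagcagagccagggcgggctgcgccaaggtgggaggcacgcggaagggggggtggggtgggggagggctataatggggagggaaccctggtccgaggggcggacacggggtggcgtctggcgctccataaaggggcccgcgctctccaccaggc
Gusb: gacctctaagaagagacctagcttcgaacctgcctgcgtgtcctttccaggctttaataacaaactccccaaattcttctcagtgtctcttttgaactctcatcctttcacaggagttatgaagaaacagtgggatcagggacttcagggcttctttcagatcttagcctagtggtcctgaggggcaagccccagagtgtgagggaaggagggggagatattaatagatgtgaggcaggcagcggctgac
Kap: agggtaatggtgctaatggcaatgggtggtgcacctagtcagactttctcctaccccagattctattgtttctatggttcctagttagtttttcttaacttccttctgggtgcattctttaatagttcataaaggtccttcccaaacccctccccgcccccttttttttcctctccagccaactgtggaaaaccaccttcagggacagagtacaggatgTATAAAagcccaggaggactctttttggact
Of these, Kap has the letters TATAAA at position -31 from the start site, and 8.32% of the 32817 mouse promoter windows of 300 bases (250 before to 50 after a start) hold them on the same strand. The androgen response element half-site TGTTCT, searched on both strands, was in 0 of the 6 members' windows, against 6226 of the 32817 windows. The full element, that half-site after its own reverse complement and a gap of 3 bases, was in 0 of 6, against 0.00914%. ACGTG, the core of the hypoxia response element, and CACGTG, which contains ACGTG, were likewise in 0 of 6, against 19.6% and 7.15% of all windows, and CCAAT was in Acsm3 only (at -37 and -25; 37.4% of windows). The annotated genes of Acsm3 and Odc1 begin at 119760883 and 17544808, upstream of the start sites that their windows use. Both windows thus describe a later start, and the CCAAT matches of Acsm3 lie within its annotated gene. These are descriptions of a short window. Androgen response elements of these genes, where known, need not lie in it. The GC content of the windows ran from 42.0% (Slco1a1) to 78.0% (Odc1), with Srd5a2 at 62.7%, Gusb at 49.7% and Kap at 44.7%, against a median of 52.7% for all windows.

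Each level is the log2 of a probe's processed signal, from which the array's own 75th percentile was subtracted, so that 0 is the signal that 75% of the probes do not exceed and a step of 1 is a doubling. A gene was called where limma's moderated test, adjusted by Benjamini-Hochberg over all 17736 genes, gave a p under 0.05. In each comparison of 6 genes below, the values are of the brightest probe.

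In diabetic kidneys 5 of the 6 genes were lower than in sham kidneys and Kap did not pass the test. Of all genes tested, 6.13% were called lower in this comparison, and the median change of all genes was -0.01. Because earlier results were known when the 6 genes were chosen, their count cannot be read as an enrichment. Srd5a2 and Gusb fell 6.68-fold and 6.56-fold, Slco1a1 to 32.7% of the sham level, Odc1 to 39.1% and Acsm3 to 42.6%. In these 5 genes every DKD kidney lay below every sham kidney, a separation that 1.92% of all genes tested showed in this direction.

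Srd5a2 encodes steroid 5-alpha-reductase 2, which makes dihydrotestosterone from testosterone. Its level ran from -2.31 to 0.59 in sham kidneys (median -1.15), from -4.80 to -2.63 in DKD (median -3.71) and from -3.76 to -1.76 with enarodustat (median -3.46). The spread was widest in the sham group (SD 1.08, against 0.70 in DKD and 0.66 with enarodustat), and the lowest sham kidney lay below the highest enarodustat kidney. The fall in DKD was -2.74 ± 0.40 (SE) on the log2 scale, 6.68-fold, with an adjusted p of 0.000119 by limma and an exact two-sided permutation p of 0.0002 for this gene alone. Srd5a2 ranked 14 of 17736 by the size of its fall. Its probe was dim, and the size of the fall rests on the background correction: -1.36 ± 0.21 after normexp (adjusted p = 0.000158).

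Gusb encodes beta-glucuronidase, a lysosomal enzyme that removes glucuronic acid from glycosaminoglycans. Its level ran from 4.11 to 5.21 in sham kidneys (median 4.50), from 0.94 to 3.33 in DKD (median 1.84) and from 1.65 to 4.06 with enarodustat (median 2.42). All 18 diabetic kidneys, treated or not, were below the lowest sham kidney. The fall in DKD was -2.71 ± 0.40, 6.56-fold, with an adjusted p of 0.000139 by limma and an exact permutation p of 0.0002. It ranked 15 by size, next to Srd5a2.

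Odc1 encodes ornithine decarboxylase, which catalyses the first step of polyamine synthesis. Its level ran from 6.81 to 7.55 in sham kidneys (median 7.31), from 4.65 to 6.62 in DKD (median 5.92) and from 5.55 to 7.04 with enarodustat (median 5.99). Enarodustat kidneys reached into the sham range and DKD kidneys did not. The fall in DKD was -1.35 ± 0.29, 2.56-fold (adjusted p = 0.00292 by limma), and its other probe gave -1.60 ± 0.33 (adjusted p = 0.00402 over all probes).

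Slco1a1 encodes an organic anion transporting polypeptide of the proximal tubule brush border, and Acsm3 encodes a mitochondrial synthetase that activates medium-chain fatty acids. Slco1a1 ran from 3.52 to 4.01 in sham kidneys (median 3.77), from -0.24 to 3.25 in DKD (median 2.42) and from 1.85 to 3.37 with enarodustat (median 2.64). Its fall in DKD was -1.61 ± 0.38, 3.06-fold (adjusted p = 0.00686 by limma), and its other probe gave -1.88 ± 0.42 (adjusted p = 0.00632 over all probes). Acsm3 ran from 6.60 to 7.04 in sham kidneys (median 6.72), from 3.92 to 6.54 in DKD (median 5.73) and from 5.48 to 6.46 with enarodustat (median 5.88). Its fall in DKD was -1.23 ± 0.26, 2.35-fold (adjusted p = 0.00319 by limma). For both genes the sham kidneys were tightly grouped (SD 0.18 and 0.16) and the DKD kidneys were not (SD 1.07 and 0.73), with DKD 2 far below the others. Without DKD 2 the falls were -1.32 ± 0.28 and -1.03 ± 0.19, and both were still called.

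Kap encodes kidney androgen-regulated protein, an abundant proximal tubule transcript. Its level ran from 8.83 to 9.10 in sham kidneys (median 8.98), from 8.33 to 9.02 in DKD (median 8.74) and from 8.32 to 9.12 with enarodustat (median 8.65), so that the groups overlapped. The difference in DKD was -0.29 ± 0.12 with an adjusted p of 0.114 by limma, and its 95% interval ran from -0.54 to -0.05. Its spot was not saturated on any array. After normexp the difference was -0.19 ± 0.06 and was called (adjusted p = 0.0295), and in the authors' deposited values it was -0.20 ± 0.06 (adjusted p = 0.0318).

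**Figure D1:**
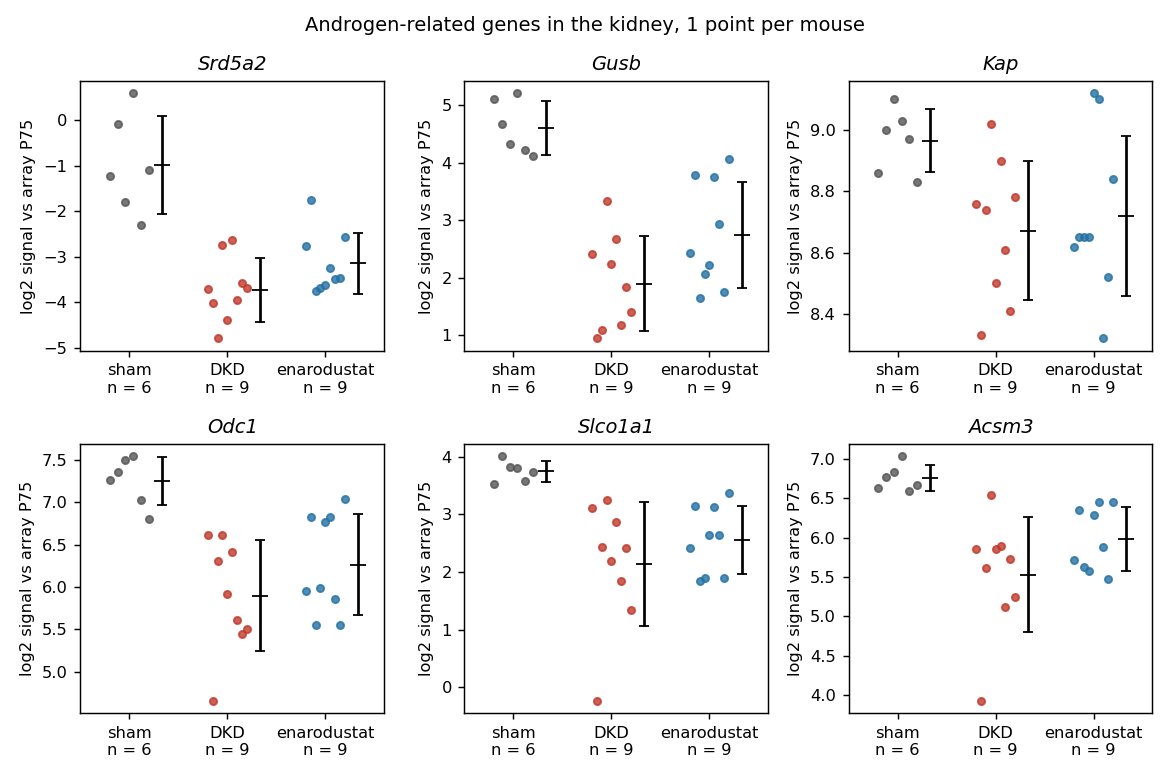
Levels of the 6 genes (y axis, log2 signal minus the array's 75th percentile; each panel has its own scale) in sham, DKD and enarodustat kidneys, with 1 point per mouse and the mean ± SD beside it. In the panels other than Kap all DKD points lie below all sham points, with mean levels of Gusb at 4.61 in sham, 1.90 in DKD and 2.74 with enarodustat.

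The arrays filled 3 slides, each with 2 sham, 3 DKD and 3 enarodustat arrays, so the difference could be taken within each slide. In slides 1, 2 and 3 it was -3.53, -2.65 and -2.04 for Srd5a2, -3.42, -2.02 and -2.70 for Gusb, and -1.45, -1.21 and -1.40 for Odc1. It was -2.00, -1.04 and -1.79 for Slco1a1, -1.57, -0.84 and -1.28 for Acsm3, and -0.32, -0.26 and -0.30 for Kap. All 6 genes were lower on all 3 slides, and with slide as a block the same 5 genes were called, with adjusted p from 0.000145 to 0.00726 in limma.

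Enarodustat kidneys were compared with DKD kidneys to ask whether the drug moved these genes in diabetes. By limma 0 of 6 genes were called, where 0.716% of all genes were, and 1 of 6 (Gusb) had an unadjusted p under 0.05, as did 1937 of all 17736 genes. All 6 means were higher with enarodustat. Gusb was 0.84 ± 0.36 higher (1.79-fold, 95% interval 0.10 to 1.58, adjusted p = 0.366), with 7 of 9 treated kidneys above the DKD mean. Srd5a2 was 0.58 ± 0.36 higher (interval -0.16 to 1.31, adjusted p = 0.618; 0.17 ± 0.19 after normexp) and Acsm3 0.46 ± 0.24 higher (interval -0.03 to 0.94, adjusted p = 0.504), each with 8 of 9 kidneys above the DKD mean. Slco1a1 was 0.42 ± 0.34 higher (interval -0.28 to 1.13), Odc1 0.37 ± 0.26 higher (interval -0.16 to 0.89) and Kap 0.05 ± 0.11 higher (interval -0.17 to 0.26). The intervals leave room for a rise of Srd5a2, Gusb or Slco1a1 of more than 1 log2 step. Those of the genes other than Kap are too wide to show that the groups are alike. The 95% interval of Kap holds no difference larger than 0.26 in either direction. On slide 2 the sign was turned for Srd5a2 (-0.26), Gusb (-0.06) and Slco1a1 (-0.21), and without DKD 2 the difference of Slco1a1 was 0.13 and that of Acsm3 0.25.

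Against the same sham kidneys, 5 of 6 genes were lower with enarodustat, where 6.75% of all genes were called lower. Srd5a2 was -2.16 ± 0.40 (22.3% of the sham level, adjusted p = 0.000764 by limma; -1.19 ± 0.21 after normexp, adjusted p = 0.000428), Gusb -1.87 ± 0.40 (27.4%, adjusted p = 0.00276) and Odc1 -0.99 ± 0.29 (50.4%, adjusted p = 0.0208). Slco1a1 was -1.19 ± 0.38 (43.9%, adjusted p = 0.0358) and Acsm3 -0.78 ± 0.26 (58.4%, adjusted p = 0.0472), while Kap was -0.25 ± 0.12 (adjusted p = 0.163) and not called. The groups did not overlap for Gusb, Slco1a1 and Acsm3, as for 2.03% of all genes in this direction. This comparison and that of DKD with sham share the sham kidneys, so they are not independent of each other. On every slide row 1 held the sham arrays and row 2 the enarodustat arrays; with slide row as a term, which only the 6 DKD arrays in row 1 and 3 in row 2 inform, 0 of 6 genes were called by limma (adjusted p from 0.0613 for Srd5a2 to 0.245 for Acsm3; 4 of 6 with an unadjusted p under 0.05), at changes of -2.19 for Srd5a2, -1.60 for Gusb, -1.25 for Odc1, -1.31 for Slco1a1 and -0.86 for Acsm3. Acsm3 lost its call without 16 of the 24 arrays in turn, Slco1a1 without 9 and Odc1 without Sham 3.

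**Figure D2:**
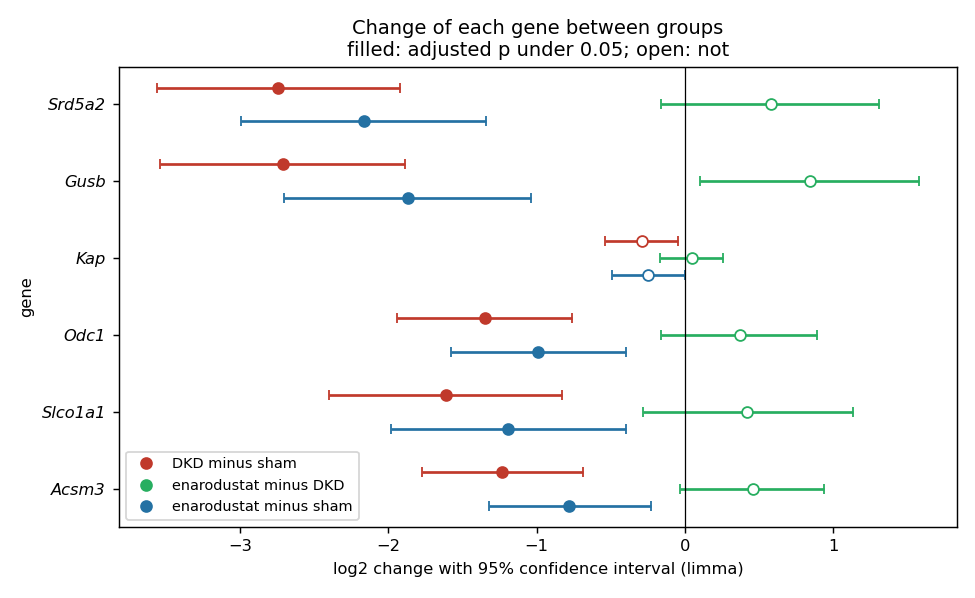
Change of each gene (x axis, log2 change with its 95% confidence interval from limma) in the 3 comparisons, filled where the adjusted p was under 0.05. The filled points, 5 in each comparison with sham, all lie left of 0, and the points for enarodustat minus DKD are open and run from 0.05 for Kap to 0.84 for Gusb.

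Within each diabetic group, mice that were low for some of these genes were low for others. The 15 pairs of genes were correlated within each group, with exact permutation p adjusted over the 15 pairs. Pairs of other genes were not counted, so the number of pairs that passed does not set these genes apart from others. In DKD kidneys (n = 9) all 15 Pearson r were positive (0.32 to 0.95, median 0.72), and 6 pairs had an adjusted exact p under 0.05. Slco1a1 and Acsm3 had the highest, r = 0.95 (rho = 0.83), with adjusted exact p of 0.00351 and 0.0413, and r was 0.84 without the 2 mice farthest from the median of Slco1a1. Odc1 and Slco1a1 followed at r = 0.92 (rho = 0.88, adjusted exact p = 0.00351 and 0.0231; r = 0.81 without the 2 farthest). Gusb and Acsm3 had r = 0.82 (rho = 0.93, adjusted exact p = 0.0168 and 0.0112; 0.81 without the 2 farthest). Srd5a2 had r of 0.32 to 0.56 to Odc1, Slco1a1, Acsm3 and Kap, and 0.73 to Gusb (adjusted exact p = 0.0559). Without the 2 mice farthest from the median of Srd5a2, r was 0.49 to Odc1, 0.51 to Slco1a1 and 0.54 to Acsm3. On that basis it was 0.73 to Kap and 0.63 to Gusb, where the median over the 15 pairs was 0.58. Gusb and Kap went from 0.62 to 0.17, and differences between pairs were not tested.

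In enarodustat kidneys (n = 9) 14 of 15 r were positive (-0.01 to 0.96, median 0.70) and 6 pairs passed. Odc1 and Acsm3 had r = 0.96 (rho = 0.85, adjusted exact p = 0.00557 and 0.0182; 0.93 without the 2 farthest), Gusb and Slco1a1 r = 0.95 (rho = 0.95, adjusted exact p = 0.00242 and 0.00529; 0.91), and Slco1a1 and Acsm3 r = 0.94 (rho = 0.93, adjusted exact p = 0.00242 and 0.00562; 0.92). Srd5a2 and Kap were the pair at -0.01. In sham kidneys (n = 6) r ran from -0.04 to 0.78 (median 0.57), and 0 of 15 pairs passed with either coefficient, the smallest unadjusted exact p being 0.0736 for Pearson and 0.0333 for Spearman. Whether the groups differ in these correlations was not tested. Without DKD 2, 3 pairs passed in DKD, and without enarodustat 9, 3 pairs passed with the drug, so part of the count rests on single mice; each slide holds too few mice of a group for a correlation within it.

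**Figure D3:**
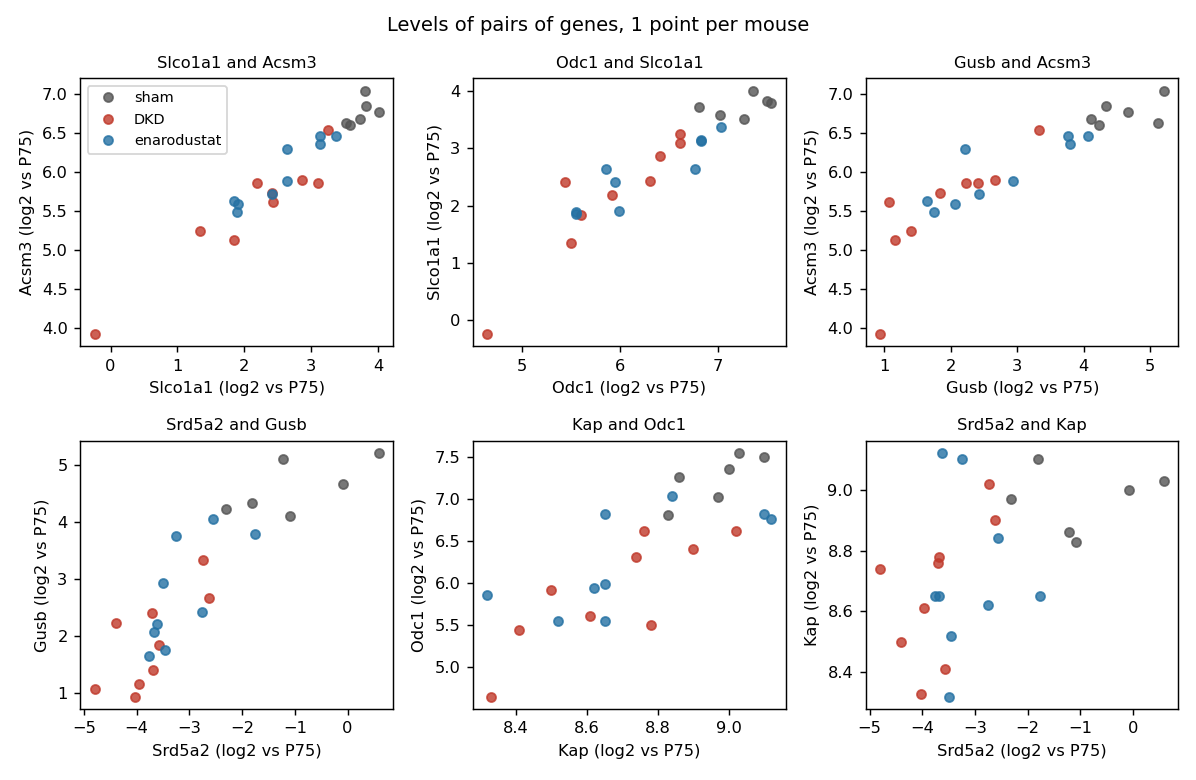
Levels of 6 pairs of the genes (both axes, log2 signal minus the array's 75th percentile), 1 point per mouse, coloured by group. In the panel of Slco1a1 and Acsm3 the DKD points run along a line (r = 0.95) with DKD 2 at its lower end, while in the panel of Srd5a2 and Kap the enarodustat points show no such line (r = -0.01).

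The mouse DKD 2 had the lowest level in its group for 5 of the 6 genes, all but Srd5a2, for which it ranked 3 of 9 from the bottom and DKD 3 was lowest. DKD 4 had the highest level for 4 genes. In the enarodustat group, mouse 3 was lowest for 4 genes and mouse 9 highest for 4. The array of enarodustat 3, which carried a quality warning from the scanner software, stayed in the fit. In the sham group mouse 4 was highest for 4 genes. Replicate numbers only name the mice.

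**Figure D4:**
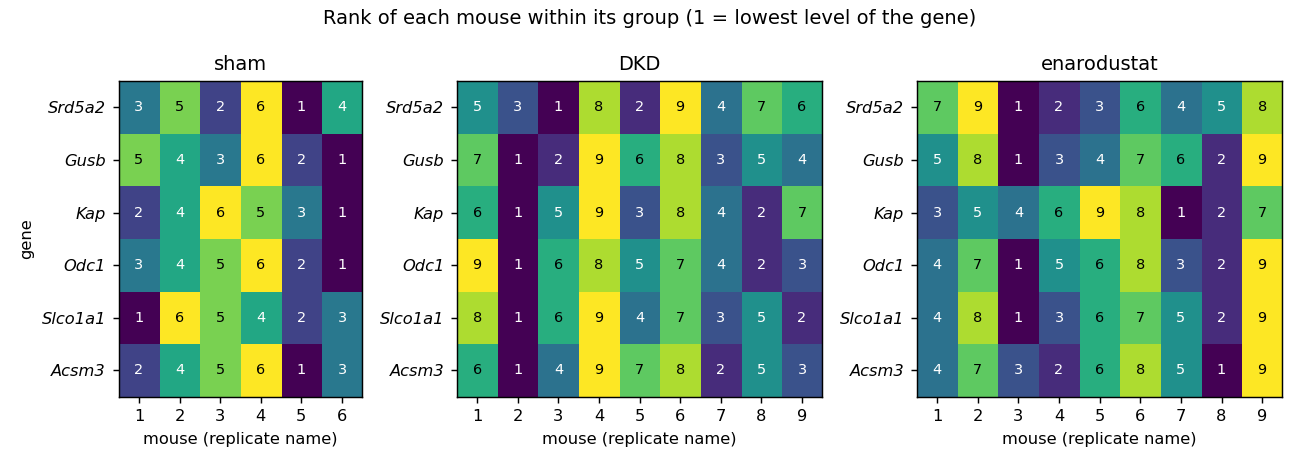
Rank of each mouse within its group (x axis, mice by replicate name; y axis, the 6 genes), where 1 is the lowest level and the colour runs from dark for low to yellow for high. DKD 2 is at rank 1 in 5 rows, and DKD 4 and enarodustat 9 are each at the top rank in 4 rows.

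Over all 24 arrays, after the group means were removed, each gene was set against 16562 others to find its nearest by Pearson r. The arrays share slides and labelling, so these values are descriptions. Slco1a1 was nearest to Acsm3 (r = 0.944), then to Mtrex, an RNA helicase (0.922), and Gm6300 (0.920). Acsm3 was nearest to Gm6300 (0.949), Slco1a1 (0.944) and Slc22a28, a member of the organic anion transporter family (0.941). Odc1 was nearest to Cd36, a fatty acid transporter (0.930), Chst7 (0.926) and Cdk16 (0.918), with Slco1a1 and Acsm3 at ranks 17 and 18. Gusb was nearest to Tmem237 (0.895), Lpgat1 (0.892) and the motor protein gene Myo5a (0.887). Srd5a2 had lower values, nearest to Rpl3l (0.766), Cyp2e1 (0.738) and the lysosomal mannosidase gene Man2b1 (0.733), and Gusb was the nearest other member at rank 15. Kap was nearest to Flad1 (0.919), Exosc2 (0.915) and Nt5dc1 (0.914), and its nearest member, Odc1, was at rank 800.

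Among all genes tested, 6.13% were called lower in DKD. Of 14 tested genes of androgen signalling, chaperones, coactivators and corepressors among them, 0 rose and 2 fell in DKD (median change -0.11). Both were chaperones that hold steroid receptors ready, Hsp90aa1 (-0.87 ± 0.12, adjusted p = 8.37e-05) and Hsp90ab1 (-0.70 ± 0.10, adjusted p = 0.000139), and both serve many other proteins. The coactivators Ncoa1, Ncoa2 and Ncoa3 differed by -0.04, -0.11 and -0.09 and were not called.

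Of the 21 tested genes of androgen synthesis and inactivation, 0 rose and 4 fell in DKD (median change -0.31). The share called lower among all genes was 6.13%. Hsd17b11, a 17-beta-hydroxysteroid dehydrogenase found on lipid droplets, fell by 1.42 on the log2 scale (adjusted p = 0.000673 by limma). Hsd17b2, which turns testosterone into the weaker androstenedione, fell by 0.55 (adjusted p = 0.0174), and Hsd17b12, which also elongates fatty acids, by 0.50 (adjusted p = 0.00352). Srd5a3, a relative of Srd5a2 needed for dolichol synthesis, fell by 0.31 (adjusted p = 0.0386); its call was lost without 10 of the 24 arrays in turn. Without Sham 5 the count of this list was 2 lower. Srd5a1, the other enzyme that makes dihydrotestosterone, differed by -0.05 ± 0.13 (adjusted p = 0.856), and the sign of that difference turned after normexp, in the deposited values and after scaling to proximal tubule markers. Among the rest, Hsd3b2 differed by -0.83 (adjusted p = 0.0512; its other probe gave -0.56 and was called), Akr1c14 by -0.83 (0.0893), Akr1c18 by -1.09 (0.248), Cyp17a1 by -0.43 (0.34), Star by 0.68 (0.0695) and Akr1c21 by 0.23 (0.523). Further, Hsd3b3 differed by -0.43, Akr1c6 by -0.59, Hsd17b1 by -0.56, Hsd3b4 by 0.26, Hsd17b7 by -0.14, Hsd17b10 by -0.13, Hsd3b1 by -0.12, Hsd3b5 by 0.02 and Hsd3b6 by -0.02, none of them called. Cyp11a1, the first enzyme of steroid synthesis, and Hsd17b3, the testis enzyme for testosterone, were well above background on 0 of 24 arrays, as was Cyp19a1, the aromatase.

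Of 14 genes listed as higher in male than in female mouse kidney, 9 fell in DKD and 0 rose (median change -0.83). The share called lower among all genes was 6.13%. Cyp4a12a and Cyp4a12b, fatty acid hydroxylases of near-identical sequence whose probes may share signal, fell by 1.68 and 1.64 (adjusted p = 0.00278 and 0.00477 by limma). Hsd11b1, which regenerates active glucocorticoid, fell by 1.43 (adjusted p = 0.00995), and Adh1, an alcohol dehydrogenase, by 1.41 (adjusted p = 0.000172). The other 5 were Nudt19, Cyp2j13, Cyp4b1, Slc7a13 and Slc22a6, and the 5 not called were Cndp2, Cyp2d9, Slc22a30, Cyp2e1 and Cyp7b1. Slc22a30 differed by -0.54 at its brightest probe, and of its other probes 1 gave -0.56, not called, and 1 gave -1.24 and was called (adjusted p = 0.000619 over all probes). Leaving out each array in turn gave 8 or 9 genes (8 without DKD 2), and slide as a block gave 9.

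Of 9 genes listed as higher in females, 4 rose and 2 fell in DKD (median change 0.87), where 5.47% of all genes were called higher. The share called lower was 6.13%. Kynu, a kynureninase of tryptophan breakdown, rose by 3.73 ± 0.55 (adjusted p = 0.000139 by limma), from a range of -5.22 to -3.83 in sham kidneys to -2.95 to 1.21 in DKD. Its other probe gave 3.01 (adjusted p = 0.00111 by limma over all probes). Kynu and Cyp4a14 were dim in sham kidneys (means -4.67 and -4.82), so the sizes of their rises can depend on the background correction. Cyp4a14, a fatty acid hydroxylase that also responds to fasting, rose by 2.75 ± 0.87 (adjusted p = 0.041), Prlr, the prolactin receptor, by 1.17 ± 0.33 (adjusted p = 0.0216) and Abcc4, an efflux transporter, by 0.87 ± 0.18 (adjusted p = 0.00241). After normexp 2 of these 4 were called, with Cyp4a14 and Prlr lost, and the other probes of Prlr gave 0.33 and 0.35, not called. Slc22a7, an organic anion transporter, fell by 1.87 (adjusted p = 0.00578) and Cyp2a4, a steroid hydroxylase, by 0.70 (adjusted p = 0.0477). Without Sham 2 the count of those higher was 2. Cyp2a4 lost its call without 17 of the 24 arrays in turn, which left 1 gene lower, and Cyp4a14 without 10. The 3 not called were Akr1c18, Slc7a12 and Abcc3. Akr1c18, which is also on the androgen synthesis list, differed by -1.09 and Abcc3 by 0.04. Slc7a12 had mean levels of -5.48 in sham and -3.95 in DKD. The sex bias of the listed genes is background knowledge, since all mice here were male. For Cyp2a4 a female bias in the kidney itself was not checked. Its fall therefore cannot be read as going against the list.

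**Figure D5:**
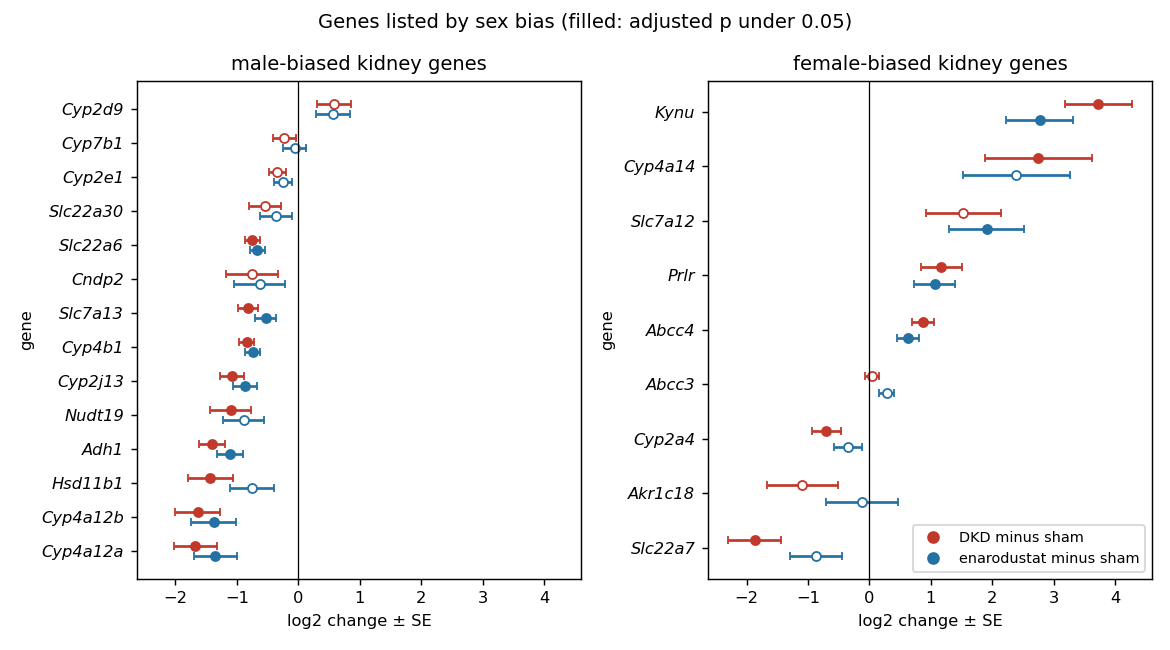
Change of the genes listed as higher in male kidney (left) and in female kidney (right), with log2 change ± SE on the x axis, for DKD minus sham and enarodustat minus sham, filled where the adjusted p was under 0.05. On the left 9 DKD points are filled and all lie below 0, and on the right 4 filled DKD points lie above 0 and 2 below; the comparisons share the sham kidneys.

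The pathways of the single members were counted the same way, beside 5.47% of all genes called higher and 6.13% called lower in DKD. The polyamine counts lie near these shares. Of 14 other genes of polyamine metabolism 1 rose in DKD, Agmat (0.81 ± 0.21, adjusted p = 0.0109 by limma), lost with slide row as a term, and 1 fell, Sat2 (-0.50 ± 0.12, adjusted p = 0.00571). The ornithine decarboxylase antizymes Oaz1 and Oaz2 differed by -0.28 and -0.18 and were not called, and Azin2, an antizyme inhibitor, differed by 0.34, not called, though its other probe gave 0.54 and was called. Of 20 lysosomal hydrolases other than Gusb, 5 fell and 2 rose (median change -0.16); Arsb fell by 0.68, Naglu by 0.58 and Man2b1 by 0.48, and Arsa and Manba rose by 0.41 and 0.35. The other probe of Arsb gave -0.24 and was not called, the call of Man2b1 was lost after normexp, and that of Arsa without 10 of the 24 arrays in turn. Of 3 other medium-chain acyl-CoA synthetases, Acsm1 fell by 0.59 (adjusted p = 0.00121); its other probe gave -0.38 and was not called, while that of Acsm2 gave -0.59 and was called, against -0.28, not called, at its brightest probe. Of 9 other organic anion transporting polypeptides, Slco1a6 fell by 0.99 and Slco3a1 by 0.91 and Slco4a1 rose by 0.86, though its other probe gave -0.16; without Sham 3 or Sham 5 only 1 of the transporters was called lower.

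With enarodustat against DKD, limma called 0 of the 103 genes in these 8 lists, and 11 of 103 had an unadjusted p under 0.05, a share close to that of all genes (1937 of 17736). The list of genes higher in males had a median change of 0.19, with 13 of 14 differences above 0. That of genes higher in females had a median of 0.24, with 5 of 9 above 0. The median change of all genes was 0.00. Against sham, the counts with enarodustat were 7 lower and 0 higher of the 14 genes higher in males. They were 4 higher and 0 lower of the 9 genes higher in females. Among all genes 6.75% were called lower and 8.74% higher in this comparison.

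In whole kidney RNA, fewer cells of a type and less RNA per cell cannot be told apart. The proximal tubule, the segment that holds Kap, was represented by 12 markers, of which 2 fell (Ggt1, -0.89; Hnf4a, -0.26, whose other probe gave -0.15 and was not called), 1 rose (Slc5a12, 0.55) and 9 were not called in DKD. Lrp2, the endocytic receptor megalin, differed by -0.08 ± 0.16. Their summed signal relative to the 75th percentile was 1296 to 1495 in sham, 1200 to 1445 in DKD and 1063 to 1301 with enarodustat. With each array scaled to these markers in place of the 75th percentile, the falls in DKD were -2.67 for Srd5a2, -2.64 for Gusb, -1.28 for Odc1, -1.54 for Slco1a1 and -1.16 for Acsm3, all 5 called. All 6 collecting duct principal cell markers rose in DKD, led by Aqp4 (1.19) and Aqp2 (0.91), with sums of 27.5 to 36.4 in sham and 43.1 to 52.8 in DKD. Of 5 macrophage markers 1 was called, Csf1r, which fell by 0.89 at its brightest probe while its other probe gave -0.12 (adjusted p = 0.69 over all probes), and Cd68 differed by -0.11. Their median summed signal was 17.4 in sham and 9.97 in DKD, led by the brighter Csf1r probe. Of 5 thick ascending limb markers 2 rose in DKD (Ptger3, 0.66; Slc12a1, 0.41) and 1 fell (Umod, -0.49), with a median change of 0.27. Their summed signal, led by Umod, was lower, at 206 to 240 in sham and 140 to 206 in DKD. Of 4 distal convoluted tubule markers 1 rose, Calb1 (0.77, adjusted p = 0.000345 by limma), and Slc12a3 differed by 0.11; the median sum was 52.6 in sham and 78.1 in DKD. Of 5 lymphocyte markers 1 fell, Cd3g (-0.61, adjusted p = 0.0316), all 5 differences were below 0 (median -0.48), 4 had an unadjusted p under 0.05, and the median sum was 1.80 in sham and 1.35 in DKD. Other first markers were Atp6v1g3 of intercalated cells (-0.15), Nphs1 of podocytes (0.56) and Pecam1 of endothelium (0.21), none called at the brightest probe. The other probe of Nphs1 gave 0.66 and was called. Of 5 endothelial markers 2 differences were above 0 in DKD, with a median change of -0.06. With enarodustat against DKD, 2 of these 5 were called higher (median change 0.18), where 0.716% of all genes were called. Adjacent tissue was checked through adrenal cortex and fat: Cyp11b1 and Cyp11b2 were well above background on 2 and 0 of 24 arrays, Adipoq on 0, and 0 of 3 tested markers of each list were called by limma in DKD, with 0 and 1 at an unadjusted p under 0.05. The part of these cell type markers in the results was not tested.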

How the data were processed

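Total RNA of 24 kidneys was labelled with Cy3 and hybridised to Agilent arrays, 1 per mouse. Per the file headers, the deposited scanner files hold spot intensity, background-subtracted and detrended by Feature Extraction 12.1.1.1; the submitters' processing notes name 11.5.1.1 and limma. The authors' deposited table holds log2 values of 31409 probes; the sources used here do not give its scale, which was found by comparison: normexp and quantile normalization differed from it by a median of 0.00860 (largest 0.106). No depth exists for arrays; their number limits the precision. Per array, 37716 to 44732 spots were well above background, 0 non-control spots were saturated and the 75th percentile lay at signals of 187 to 388.

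Control spots and 1372 outlier-marked values were left out. Probes were named by unversioned accession through RefSeq (GRCm38.p6): 32994 of 56605 had a gene, giving 22911 symbols; promoters came from the same source, and 6 of 6 members matched. The array grid names another build, so its coordinates were not used. The main value subtracted the array's 75th percentile from the log2 processed signal. The brightest probe stood for a gene, and a gene was tested where this probe cleared background on 6 or more of the 24 arrays. All arrays entered 1 fit in limma 3.58.1 (R 4.3.3) with group as the only term; p-values are two-sided, adjusted by Benjamini-Hochberg. The limma fit was tested on simulated data for DKD minus sham, and the other steps were not. Replicates were taken as separate mice, since the series text counts mice per group.

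Alternatives were other background corrections, scalings, filters, blocks for slide, slide row and replicate number, and leaving out each array. The normexp alternative used median spot signals, where mean signals had been planned. The members and lists were chosen with earlier results of these data known. Named genes were all members; those androgen synthesis genes measured above background on at least 50% of arrays; up to 4 called genes per other list by size; 3 nearest genes per member; and the first marker of each cell type. Abcc4, Cyp2a4, Arsa, Manba, Oaz1, Oaz2, the coactivators, the markers beyond the first of each list and the genes listed without a value were added after their values were seen. Some genes that this rule names are not reported here.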

Additional observations from a re-analysis of the deposited data

Results flagged for a closer look

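Among 63 genes of the androgen lists, 189 sets of 1 gene in 1 group were searched for an array far from the rest of its group by Dixon's test, and 10 sets (5.29%) held one. Chance alone marks about 1 set in 20. No member was among them. Cndp2 had a low array in sham, Sham 4 at 3.81 (next 5.73), and a high array in DKD, DKD 4 at 6.14 (next 5.04). Slc7a12 was at -0.11 in DKD 2 (next -3.38), and Hsd3b2 at 2.55 in DKD 3 (next 4.61). Cyp4a14 was at -6.18 in Sham 1 (next -4.85). Cyp2d9 was at 1.38 in enarodustat 6 (next 2.64), and Hsd17b1, a dim probe, at -7.99 in enarodustat 4 (next -5.68). Ncoa3 was at 3.39 in Sham 4 (next 2.98) and at 2.21 in enarodustat 5 (next 2.71), and Hsd3b6 at 0.62 in Sham 5 (next 0.16). All values are log2 signal minus the array's 75th percentile.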

How the results depend on the processing

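The falls in DKD of Srd5a2, Gusb, Odc1, Slco1a1 and Acsm3 kept their direction under all alternatives run and their call under all but the slides alone; leaving out each array in turn gave 5 members each time. The enarodustat minus sham calls are the weaker ones. By limma, slides 1, 2 and 3 alone (2 sham, 3 DKD and 3 enarodustat arrays each) gave 0, 0 and 0 members against sham in both comparisons, with 4, 5 and 5 members at an unadjusted p under 0.05 in DKD and 2, 5 and 1 with enarodustat; over all genes they gave 15, 0 and 9 (0 beside 1656 unadjusted) in DKD, 36, 30 and 7 with enarodustat against sham, and 4, 3 and 0 (0 beside 544 unadjusted) with enarodustat against DKD. Members called for enarodustat minus sham were 5 at first, 3 after scaling to proximal tubule markers, 0 with slide row as a term (4 at an unadjusted p under 0.05), 2 with the replicate block and 2 to 5 without 1 array (2 without Sham 3, and 3 without Sham 2, 4, 5 or 6 or without enarodustat 1, 3, 4 or 8). Genes called for enarodustat minus DKD were 127 at first (85.0% of them higher, and 70.1% after normexp, 69.5% in the deposited values and 74.8% after quantile normalization), 306 after scaling to proximal tubule markers (98.7% higher), 83 with no filter, 20 with slide row, 66 with the replicate block, 47 in a fit of only these groups and 71 to 128 without 1 array (71 without enarodustat 8, 82 without DKD 7 or enarodustat 4, 84 without enarodustat 5 or 6); slide row left 889 of 2748 for enarodustat minus sham. Scaling to proximal tubule markers moved the median of all genes from -0.01 to 0.06 for DKD minus sham, from 0.00 to 0.11 for enarodustat minus DKD and from -0.02 to 0.15 for enarodustat minus sham, and the share of calls that were higher from 47.2% to 64.3% in the first of these and from 56.4% to 88.5% in the last. For enarodustat minus DKD the sign turned on slide 2 for Srd5a2 (-0.26), Gusb (-0.06) and Slco1a1 (-0.21), and for Kap on slide 3 (-0.04), with slide row (-0.09) and without enarodustat 5 or 6 (0.00 each; 0.00 to 0.10 without 1 array). Pairs of members correlated in DKD were 6 at first, 11 after normexp, 3 by Spearman's rho and 3 to 8 without 1 array (3 without DKD 2); with enarodustat 6 became 3 to 6 (3 without enarodustat 9; leaving out arrays here was chosen after seeing the data). The cause was not tested.

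Replicate numbers gave no clear pairing. Deviations from the group mean correlated at -0.36 to 0.28 (median 0.10) for the 21 same-number pairs. For the 168 others the range was -0.46 to 0.54 (median -0.02). The difference between the medians was not tested. With the replicate block the DKD minus sham members stayed at 5, and Odc1, Slco1a1 and Acsm3 lost their call with enarodustat (adjusted p = 0.0903, 0.111 and 0.125 by limma).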
